A study of Homo sapiens with 8 samples.

Results

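The SR proteins and the heterogeneous nuclear ribonucleoproteins (hnRNPs) are the main families of RNA-binding proteins that choose splice sites. They were followed here in PC3 cells, an established line of human prostate carcinoma, after an siRNA against TRPM2-AS, the antisense transcript of TRPM2, which encodes a calcium channel. Members were all genes whose platform gene symbol is SRSF and a number or begins with HNRNP and goes on in capitals or digits. The rule gave 38 genes, 12 SR and 26 hnRNP genes, out of 18850 named genes, and 59 probes out of 48798. The rule used names and no measured values, but the members were chosen with earlier results of these data known. The cells received either a non-specific control siRNA or a TRPM2-AS siRNA for 48 hours, with 4 samples of each, and the labels name no other treatment or genotype. The medium was DMEM with L-glutamine and fetal serum, and total RNA was measured on Illumina bead arrays in 1 colour. The labels name 1 siRNA against TRPM2-AS and do not say whether replicates were separate cultures, and the p-values below therefore cover the variation among these samples only, which may be technical.

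SR proteins carry RNA recognition motifs and a tail rich in arginine and serine, the RS domain, through which they recruit the splicing machinery to nearby splice sites. The kinases of the SRPK and CLK families phosphorylate that tail, and this controls where SR proteins sit in the nucleus and whether they act. The hnRNPs coat nascent transcripts, often oppose SR proteins at splice sites, and many shuttle between nucleus and cytoplasm. Several members of both families act on their own pre-mRNA, so that one gene yields productive transcripts and transcripts that nonsense-mediated decay destroys.

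Array signals were compared between 4 arrays of control and 3 of TRPM2-AS siRNA, called here control arrays 1 to 4 and TRPM2-AS siRNA arrays 1, 3 and 4 after their columns. At a detection p under 0.01, the number of probes seen per array was 13163 to 13972 with control siRNA and 13832 to 14318 with TRPM2-AS siRNA. Across tested probes, which are not independent replicates, log2 intensities correlated at 0.989 to 0.993 among control arrays, at 0.984 to 0.993 among TRPM2-AS siRNA arrays and at 0.910 to 0.926 between groups. TRPM2-AS and TRPM2 had 0 named probes, and how far the siRNA lowered its target was not analysed here. The epithelial markers KRT8, KRT18, KRT19 and EPCAM were detected on all 7 arrays, and KLK3 and FOLH1, markers of luminal prostate cells, on 0. The 3 blood markers PTPRC, HBB and CD3E were detected on 0 arrays, as were COL1A2 and DCN of the 3 fibroblast markers. The remaining fibroblast marker, COL1A1, was higher after TRPM2-AS siRNA by 1.68-fold (limma adjusted p = 0.000572), and the summed linear intensity of the 3 was 143 to 168 with control siRNA and 226 to 241 with TRPM2-AS siRNA. The summed intensity of the 4 epithelial markers was 8892 to 10378 and 6400 to 7271. EPCAM was lower by 2.21-fold and KRT19 by 1.35-fold (limma adjusted p = 1.14e-05 and 0.0104). KRT8 did not pass (log2 fold change -0.004, limma adjusted p = 0.983). KRT18 was lower by 1.43-fold on its brighter probe (limma adjusted p = 0.0299). Its dimmer probe had a log2 fold change of 0.11 and did not pass (limma adjusted p = 0.667). The part of either shift in the changes below was not tested.

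RefSeq on GRCh38.p14 gave promoter windows for 32 of the 38 genes, 46 windows in all, each the 250 bases before an annotated start. HNRNPA1, the gene that fell most, and HNRNPA1P10, HNRNPA1P33, HNRNPA3P1, HNRNPKP3 and SRSF2 had no window matched. Shown are the windows of 3 genes that fell (HNRNPA3, SRSF3 and SRSF4) and of HNRNPDL, whose probes moved in opposite directions. All are written 5′ to 3′ along the gene, with capitals on the motifs searched, on both strands. The E-box searched was CACGTG, which is its own reverse complement. The CCAAT box reads ATTGG on the other strand. The core of ETS sites was taken as CCGGAA, which reads TTCCGG on the other strand. The TATA box was taken as TATAAA, and no motif contains another. HNRNPA3 is at chr2:177212544-177212793 on the plus strand, SRSF3 at chr6:36594112-36594361 on the plus strand, SRSF4 at chr1:29181901-29182150 on the minus strand, and the more upstream of 2 HNRNPDL windows at chr4:82430463-82430712 on the minus strand.
HNRNPA3: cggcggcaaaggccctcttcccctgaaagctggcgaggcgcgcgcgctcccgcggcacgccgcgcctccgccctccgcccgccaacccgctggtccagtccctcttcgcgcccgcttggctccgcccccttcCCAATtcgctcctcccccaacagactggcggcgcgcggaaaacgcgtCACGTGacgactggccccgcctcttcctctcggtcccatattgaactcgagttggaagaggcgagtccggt
SRSF3: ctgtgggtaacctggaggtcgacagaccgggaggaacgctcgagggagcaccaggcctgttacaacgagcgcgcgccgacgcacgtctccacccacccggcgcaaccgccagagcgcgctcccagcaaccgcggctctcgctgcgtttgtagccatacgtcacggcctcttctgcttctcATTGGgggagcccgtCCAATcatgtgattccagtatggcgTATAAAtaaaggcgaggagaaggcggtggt
SRSF4: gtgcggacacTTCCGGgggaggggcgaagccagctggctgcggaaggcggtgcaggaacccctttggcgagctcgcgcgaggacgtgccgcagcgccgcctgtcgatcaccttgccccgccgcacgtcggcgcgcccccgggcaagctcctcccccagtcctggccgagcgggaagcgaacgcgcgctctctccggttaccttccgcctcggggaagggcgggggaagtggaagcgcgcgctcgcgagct
HNRNPDL: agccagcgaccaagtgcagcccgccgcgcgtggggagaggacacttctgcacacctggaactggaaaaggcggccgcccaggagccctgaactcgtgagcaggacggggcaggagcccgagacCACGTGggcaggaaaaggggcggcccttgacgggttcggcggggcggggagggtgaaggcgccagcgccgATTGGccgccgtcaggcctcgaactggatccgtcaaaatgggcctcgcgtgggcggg

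In these windows the HNRNPA3 E-box begins at position -71 from the annotated start and its CCAAT at -118. SRSF3 holds TATAAA at -30 with CCAAT at -55 and ATTGG at -70, whereas SRSF4 holds 1 TTCCGG, at -240, and none of the other motifs. The HNRNPDL window has its E-box at -127 and ATTGG at -57. Over the 46 windows, CACGTG stood in 7 (15.2%, against 6.3% of all 35116 RefSeq windows of this length), and the 6 genes holding it were HNRNPA3, HNRNPD, HNRNPDL, HNRNPH2, HNRNPH3 and HNRNPM. CCAAT on either strand stood in 22 windows (47.8% against 32.0%), CCGGAA in 8 (17.4% against 14.5%) and TATAAA in 6 (13.0% against 10.7%). Median GC content was 64.8% in the members' windows and 58.0% in all windows. Windows of one gene can overlap, as those of HNRNPDL and SRSF8 do, and these shares are a description of the letters and not of bound sites.

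Of the 59 member probes, 48 were detected on at least 3 of the 7 arrays and entered the test, which left 34 of the 38 genes tested. Of the 48 probes, 18 fell, 3 rose and 27 did not pass, while 55.6% of all tested probes passed, 27.4% higher and 28.2% lower. Of the 3 that rose, 1 probe of HNRNPH2 met the detection filter only through the TRPM2-AS siRNA arrays. Log2 intensities of the 4 and 3 arrays were compared with limma across all 14400 probes that passed the same filter, and adjusted p-values run over all of them. Where a gene had several tested probes, the one with the highest mean stood for the gene and the others are given apart. Among the 34 genes, 13 fell and 1 rose, and 20 did not pass at an adjusted p under 0.05. The share that passed was 41.2%, and over all 9629 genes tested it was 56.3%, with 28.0% higher and 28.3% lower. This gap depended on the processing, as given below. The 13 that fell make 38.2% of the members tested. The median log2 fold change was -0.26 over the members and 0.00 over all genes. In 18 of the 34 genes the groups did not overlap, and over all genes this held for 57.8%. Changes of at least 2-fold that passed numbered 5 among the members, and 18.5% of all genes had one. In bulk RNA, fewer cells holding a transcript and less of it per cell cannot be told apart.

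**Figure D1:**
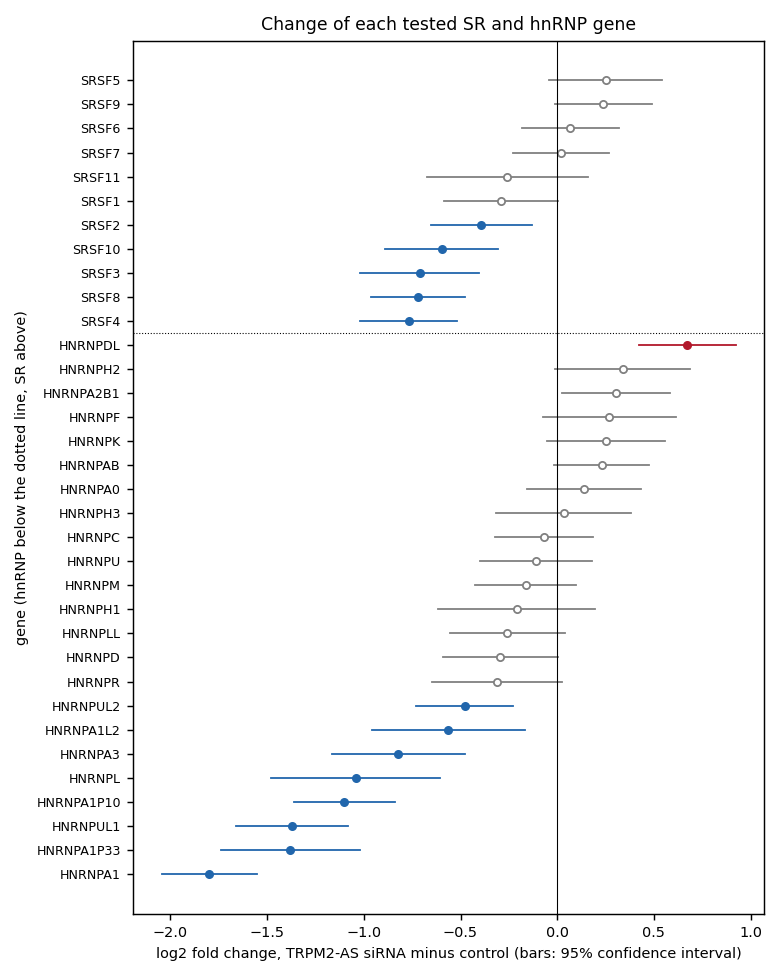
The log2 fold change (TRPM2-AS siRNA minus control) of each of the 34 tested genes is plotted with its 95% confidence interval, SR genes above the dotted line and hnRNP genes below; blue points fell, the red point rose and open points did not pass. HNRNPA1 lies farthest to the left at -1.80, and HNRNPDL is the 1 red point, at 0.67.

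Of the 12 SR genes, 11 were tested: 5 fell, 0 rose and 6 did not pass, with a median log2 fold change of -0.29. The 5 that fell were SRSF4, SRSF8, SRSF3, SRSF10 and SRSF2, and each fell by less than 2-fold.

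SRSF4 encodes one of the larger SR proteins, with a long RS domain. Its log2 intensity was 12.58, 12.51, 12.43 and 12.38 on control arrays 1 to 4 and 11.61, 11.72 and 11.80 on TRPM2-AS siRNA arrays 1, 3 and 4. All 3 TRPM2-AS siRNA arrays lay well below the lowest control array, and neither group spread far. The mean fell from 12.47 ± 0.09 (SD, n = 4) to 11.71 ± 0.10 (SD, n = 3), a log2 fold change of -0.77 ± 0.11 (SE) or 1.70-fold lower (limma adjusted p = 0.000196).

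SRSF8 is an intron-poor relative of SRSF2 that arose by retroposition. Control arrays gave 10.48, 10.46, 10.43 and 10.31, and TRPM2-AS siRNA arrays gave 9.72, 9.64 and 9.75. The groups were again fully apart, with both SDs under 0.08. SRSF8 fell by 0.72 ± 0.11 (SE) on the log2 scale, 1.65-fold (limma adjusted p = 0.00024).

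SRSF3, the smallest SR protein, promotes exon inclusion and helps to export mRNA. On its detected probe the control arrays stood at 10.33, 9.98, 10.41 and 10.05 and the TRPM2-AS siRNA arrays at 9.59, 9.36 and 9.49. Control arrays 1 and 3 were the higher ones, and even the lowest control array exceeded each TRPM2-AS siRNA array. The log2 fold change was -0.71 ± 0.14 (SE), 1.64-fold lower (limma adjusted p = 0.00134). A second SRSF3 probe was detected on 0 of 7 arrays.

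SRSF2 is a core constituent of nuclear speckles, the stores of splicing factors. It read 13.39, 13.33, 13.42 and 13.26 in control arrays and 13.10, 12.97 and 12.80 in TRPM2-AS siRNA arrays. The groups did not overlap, with TRPM2-AS siRNA array 1 closest to the controls and array 4 farthest. SRSF2 fell by 0.39 ± 0.12 (SE) on the log2 scale, 1.31-fold (limma adjusted p = 0.0154). Without TRPM2-AS siRNA array 4 it did not pass (-0.32, limma adjusted p = 0.0741).

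SRSF10 encodes a splicing repressor that acts when it is dephosphorylated. Its brighter probe, ILMN_2354649, gave 8.63, 8.66, 9.02 and 8.74 on control arrays and 8.05, 8.16 and 8.29 on TRPM2-AS siRNA arrays, so the groups were apart. That probe fell by 0.60 ± 0.13 (SE) on the log2 scale, 1.51-fold (limma adjusted p = 0.00283). The dimmer probe, ILMN_1677162, gave 7.42, 7.28, 7.70 and 7.68 against 7.30, 7.36 and 7.63, and here the groups overlapped (log2 fold change -0.09 ± 0.14 SE, limma adjusted p = 0.606). Both probes target the same RefSeq record, NM_054016, and 1 more SRSF10 probe was detected on 0 arrays.

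The 6 SR genes that did not pass had log2 fold changes between -0.29 and 0.25. SRSF1, the founding member of the family, had -0.29 with a 95% interval of -0.59 to 0.00 (limma adjusted p = 0.0844). Its TRPM2-AS siRNA array 1, at 11.13, lay within the control range of 11.07 to 11.26, while arrays 3 and 4 lay below, at 10.67 and 10.88. SRSF9, which acts on many of the exons that SRSF1 binds, stood at 13.81, 13.92, 13.70 and 13.89 on control arrays and at 14.00, 14.12 and 14.10 on TRPM2-AS siRNA arrays. Those groups did not overlap, with the TRPM2-AS siRNA arrays higher, although the difference of 0.24 ± 0.11 (SE) did not pass (limma adjusted p = 0.0966). SRSF5 had 0.25 on its brighter probe and 0.01 on the dimmer one, with overlapping groups on both. SRSF6 had 0.07 with an interval of -0.18 to 0.32, and SRSF7, a zinc knuckle protein, had 0.02 with an interval of -0.23 to 0.27. SRSF11, seen on 3 of 4 control and 2 of 3 TRPM2-AS siRNA arrays, had -0.26 with an interval of -0.68 to 0.16. SRSF12 was detected on 0 arrays and was not tested.

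**Figure D2:**
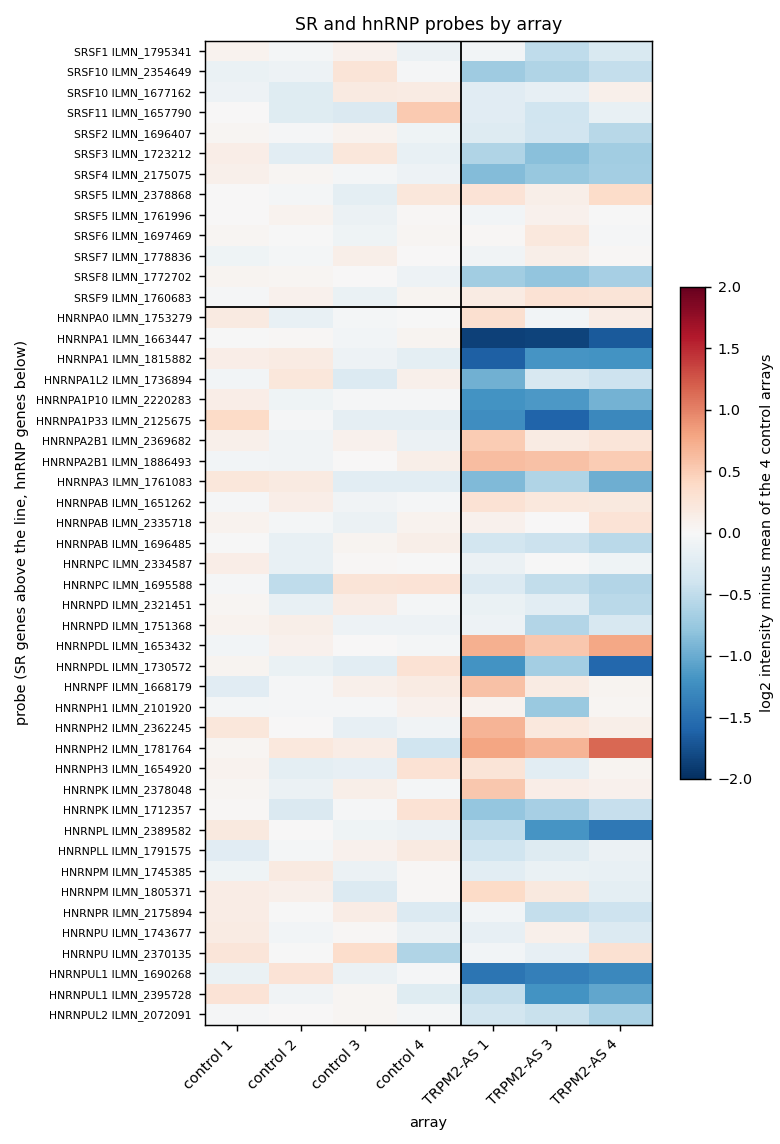
Each row is 1 of the 48 tested probes and each column 1 array; colour gives log2 intensity minus the mean of that probe on the 4 control arrays, blue lower and red higher, with SR genes above the horizontal line. Both HNRNPA1 rows are blue in all 3 TRPM2-AS siRNA columns, and HNRNPDL has 1 red and 1 blue row.

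Of the 26 hnRNP genes, 23 were tested: 8 fell, 1 rose and 14 did not pass, with a median log2 fold change of -0.21. Restricted to the 22 protein-coding genes, 21 were tested, 6 fell, 1 rose and the median was -0.16. All 5 members that fell by at least 2-fold were hnRNP genes, namely HNRNPA1, HNRNPA1P33, HNRNPUL1, HNRNPA1P10 and HNRNPL.

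HNRNPA1 is an abundant shuttling protein that blocks splicing and opposes SRSF1 in the choice between competing splice sites. Its brighter probe, ILMN_1663447, read 9.57, 9.60, 9.53 and 9.63 on control arrays and 7.71, 7.73 and 7.91 on TRPM2-AS siRNA arrays. The gap between the groups was many times the spread within either. The mean fell from 9.58 ± 0.04 (SD, n = 4) to 7.78 ± 0.11 (SD, n = 3), a log2 fold change of -1.80 ± 0.11 (SE) or 3.48-fold lower (limma adjusted p = 4.22e-07). The second probe, ILMN_1815882, gave 8.68, 8.71, 8.45 and 8.35 against 6.91, 7.37 and 7.35. It was lowest on TRPM2-AS siRNA array 1 and likewise fully apart, at -1.34 ± 0.15 (SE) or 2.52-fold lower (limma adjusted p = 3.00e-05). The difference of -0.46 ± 0.16 (SE) between the changes of the 2 probes did not pass (limma adjusted p = 0.0989). Both probes are assigned to the same RefSeq record, and other transcripts of HNRNPA1 were not measured apart.

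A further 3 genes of the HNRNPA1 kind were tested, the pseudogenes HNRNPA1P10 and HNRNPA1P33 and the retrogene HNRNPA1L2. Their sequences are close to that of HNRNPA1, and whether their probes also bind HNRNPA1 transcripts was not tested. HNRNPA1P33 read 11.32, 10.90, 10.74 and 10.76 on control arrays and 9.69, 9.33 and 9.64 on TRPM2-AS siRNA arrays. It fell by 1.38 ± 0.16 (SE) on the log2 scale, 2.60-fold, with the groups apart (limma adjusted p = 3.88e-05). For HNRNPA1P10 the values were 10.45, 10.22, 10.28 and 10.29 against 9.11, 9.16 and 9.36, also with no overlap. The fall was 1.10 ± 0.12 (SE) on the log2 scale, 2.14-fold (limma adjusted p = 2.01e-05). HNRNPA1L2 was dim, with 6.76, 7.06, 6.54 and 6.93 on control arrays and 5.87, 6.51 and 6.41 on TRPM2-AS siRNA arrays, of which 2 detected it. The lowest control array barely exceeded the highest TRPM2-AS siRNA array. Its difference of -0.56 ± 0.18 (SE), 1.48-fold lower (limma adjusted p = 0.0199), did not pass without control array 2 (limma adjusted p = 0.0546) or without TRPM2-AS siRNA array 1 (limma adjusted p = 0.0721), nor with no detection filter (limma adjusted p = 0.0503). Its other 2 probes were detected on 0 arrays.

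HNRNPUL1 encodes a protein related to the nuclear scaffold protein HNRNPU, with roles in RNA processing and at DNA breaks. The brighter probe, ILMN_1690268, gave 12.03, 12.43, 12.05 and 12.13 on control arrays and 10.70, 10.79 and 10.88 on TRPM2-AS siRNA arrays. Control array 2 was the highest, and the groups were far apart. The log2 fold change was -1.37 ± 0.13 (SE), 2.59-fold lower (limma adjusted p = 8.77e-06). The dimmer probe, ILMN_2395728, gave 10.97, 10.64, 10.74 and 10.46 against 10.23, 9.50 and 9.66. TRPM2-AS siRNA array 1 was the nearest to the controls there, yet below all of them, and the fall was 0.91 ± 0.18 (SE), 1.87-fold (limma adjusted p = 0.00167). HNRNPUL2, a paralogue linked to the trimming of DNA ends at breaks, read 10.19, 10.22, 10.26 and 10.18 against 9.85, 9.77 and 9.58. Its control arrays lay within a narrow band above all TRPM2-AS siRNA arrays, and it fell by 0.48 ± 0.11 (SE), 1.39-fold (limma adjusted p = 0.00432).

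HNRNPL binds CA-rich RNA and controls exons that contain or neighbour such repeats. Its values were 11.82, 11.63, 11.53 and 11.50 on control arrays and 11.11, 10.44 and 10.19 on TRPM2-AS siRNA arrays. TRPM2-AS siRNA array 1 stood apart from the others but below every control array. The mean fell from 11.62 ± 0.14 (SD, n = 4) to 10.58 ± 0.48 (SD, n = 3), a log2 fold change of -1.04 ± 0.20 (SE) or 2.06-fold lower (limma adjusted p = 0.00104). HNRNPLL, its paralogue known from splicing in lymphocytes, did not pass (-0.26 ± 0.13 SE, limma adjusted p = 0.125).

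HNRNPA3 is a close relative of HNRNPA1 that also takes part in RNA transport. It read 10.10, 10.06, 9.66 and 9.66 on control arrays and 8.99, 9.27 and 8.89 on TRPM2-AS siRNA arrays. Control arrays 1 and 2 were higher than 3 and 4, and all lay above the TRPM2-AS siRNA arrays. HNRNPA3 fell by 0.82 ± 0.16 (SE) on the log2 scale, 1.77-fold (limma adjusted p = 0.00106). Its pseudogene HNRNPA3P1 was detected on 2 of 4 control arrays and 0 of 3 TRPM2-AS siRNA arrays and was not tested.

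HNRNPDL, a relative of the RNA-decay factor HNRNPD that regulates its own splicing, gave opposite answers on its 2 probes. The brighter, ILMN_1653432, is assigned to the record NR_003249, whose prefix marks a non-coding transcript, and read 9.65, 9.79, 9.71 and 9.66 on control arrays and 10.41, 10.24 and 10.47 on TRPM2-AS siRNA arrays. It rose by 0.67 ± 0.11 (SE) on the log2 scale, 1.59-fold, with the groups fully apart (limma adjusted p = 0.000489). The dimmer, ILMN_1730572, is assigned to the mRNA record NM_031372 and gave 7.61, 7.43, 7.34 and 7.83 against 6.35, 6.87 and 5.99. Here every TRPM2-AS siRNA array was below every control array, with array 3 the nearest and array 4 the farthest. That probe fell by 1.15 ± 0.20 (SE), 2.21-fold (limma adjusted p = 0.000625). The changes of the 2 probes, taken as a difference within each array, differed by 1.82 ± 0.26 (SE) on the log2 scale (limma adjusted p = 0.00128 over 3351 probe pairs of all genes). When the mean of both probes stood for the gene, its log2 fold change was -0.24 and did not pass (limma adjusted p = 0.105), so the single rise among the members belongs to 1 of 2 probes.

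The same test of unequal change was run on all 15 pairs of tested probes that the members held, in 13 genes. It passed in 5 pairs of 4 genes, HNRNPDL, HNRNPK, HNRNPAB and SRSF10, and over all genes 14.0% of pairs passed. HNRNPK binds C-rich RNA and single-stranded DNA. Its brighter probe, ILMN_2378048, gave 11.93, 11.78, 12.01 and 11.86 on control arrays and 12.43, 12.03 and 11.98 on TRPM2-AS siRNA arrays. TRPM2-AS siRNA array 1 was high, array 4 lay inside the control range, and the difference of 0.25 ± 0.14 (SE) did not pass (limma adjusted p = 0.144). The dimmer probe, ILMN_1712357, gave 8.12, 7.82, 8.08 and 8.38 against 7.32, 7.44 and 7.64, with the groups apart and a fall of 0.64 ± 0.15 (SE), 1.55-fold (limma adjusted p = 0.00401). Both are assigned to the same record, NM_031263, and their changes differed by 0.89 ± 0.21 (SE; limma adjusted p = 0.0166).

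HNRNPAB, a DNA- and RNA-binding relative of HNRNPD, had 3 tested probes. The probe ILMN_1696485, assigned to NM_031266, gave 11.63, 11.49, 11.69 and 11.75 on control arrays and 11.28, 11.21 and 11.10 on TRPM2-AS siRNA arrays. Its groups were apart and it fell by 0.44 ± 0.12 (SE), 1.36-fold (limma adjusted p = 0.00778). The other 2 probes are assigned to NM_004499. The brightest, ILMN_1651262, gave 14.53, 14.69, 14.48 and 14.53 against 14.84, 14.77 and 14.76, higher on each TRPM2-AS siRNA array yet not past the test (0.23 ± 0.11 SE, limma adjusted p = 0.101). The remaining probe, ILMN_2335718, gave 12.55, 12.44, 12.36 and 12.55 against 12.56, 12.48 and 12.75, with overlapping groups. The fall of ILMN_1696485 differed from the change of ILMN_1651262 by 0.67 ± 0.15 (SE; limma adjusted p = 0.0140) and from that of ILMN_2335718 by 0.57 ± 0.15 (SE; limma adjusted p = 0.0349). In SRSF10 the brighter probe fell more, by a difference of -0.50 ± 0.14 (SE; limma adjusted p = 0.0386). The SRSF10 pair and the HNRNPAB pair with ILMN_2335718 each passed in 9 of 17 alternative settings, the other HNRNPAB pair in 16, and the HNRNPDL and HNRNPK pairs in all 17.

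**Figure D3:**
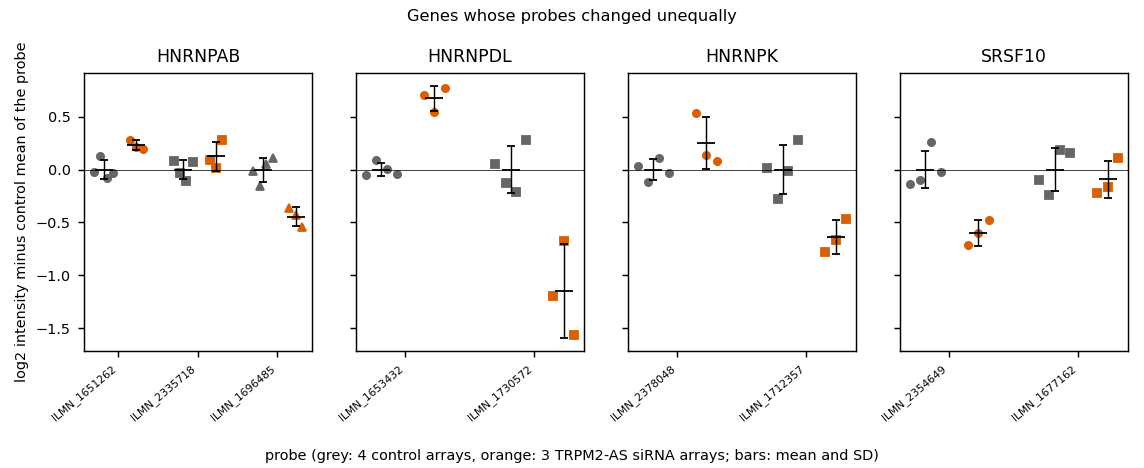
For the 4 genes whose probes changed unequally, each point is 1 array's log2 intensity minus the probe's own control mean, grey for the 4 control arrays and orange for the 3 TRPM2-AS siRNA arrays; bars show mean and SD, and probes run from brightest to dimmest. In HNRNPDL the orange points lie above 0 on the first probe and below 0 on the second.

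The dimmer probes of 2 further genes rose while the brighter one did not pass. HNRNPA2B1, which binds many transcripts and takes part in RNA trafficking, gave 13.29, 13.13, 13.28 and 13.09 on control arrays and 13.70, 13.36 and 13.45 on TRPM2-AS siRNA arrays by its brighter probe. All 3 TRPM2-AS siRNA arrays were above the controls, but the difference of 0.30 ± 0.13 (SE) did not pass (limma adjusted p = 0.0624). Its dimmer probe, ILMN_1886493, gave 7.24, 7.24, 7.30 and 7.42 against 7.92, 7.89 and 7.81 and rose by 0.57 ± 0.11 (SE), 1.49-fold (limma adjusted p = 0.00118). HNRNPH2, a protein that binds runs of G, had 0.34 ± 0.16 (SE) on its brighter probe (limma adjusted p = 0.0925). Its dimmer probe, ILMN_1781764, was detected on 1 of 4 control arrays and 3 of 3 TRPM2-AS siRNA arrays, with 5.95, 6.12, 6.07 and 5.52 against 6.70, 6.59 and 7.06. It rose by 0.87 ± 0.17 (SE), 1.83-fold (limma adjusted p = 0.00139), but not in the authors' processed values (0.23, limma adjusted p = 0.143). This probe met the detection filter only through the TRPM2-AS siRNA arrays. With no background correction its log2 fold change was 0.39 (limma adjusted p = 0.00353). Neither gene's probes passed the test of unequal change (limma adjusted p = 0.313 and 0.198).

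The other hnRNP genes that did not pass had log2 fold changes between -0.31 and 0.27 on their brightest probe. HNRNPD, which steers mRNAs with AU-rich elements to decay, had -0.30 and -0.33 on its 2 probes (limma adjusted p = 0.0843 and 0.0634). HNRNPR had -0.31 with a 95% interval of -0.65 to 0.02, and HNRNPM, whose brighter probe read lower on every TRPM2-AS siRNA array than on any control array, had -0.16 with an interval of -0.42 to 0.10 and 0.12 on its dimmer probe. HNRNPC, which binds runs of U, had -0.07 on its brighter probe and -0.45 on the dimmer (limma adjusted p = 0.647 and 0.0633). The scaffold gene HNRNPU had -0.11 and 0.03, and HNRNPA0, a single-exon relative of HNRNPA1, had 0.14. The 3 genes for G-run binding relatives, HNRNPF, HNRNPH1 and HNRNPH3, had 0.27, -0.21 and 0.03. HNRNPH1 had a mean of 9.74 ± 0.05 (SD, n = 4) on control arrays and 9.53 ± 0.46 (SD, n = 3) on TRPM2-AS siRNA arrays, of which arrays 1 and 4 lay within the control range and array 3 below it. HNRNPCL1 and the pseudogene HNRNPKP3 were detected on 0 arrays, as was 1 further probe each of HNRNPH1 and HNRNPH3.

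The authors' processed table holds all 8 samples, among them TRPM2-AS siRNA replicate 3, which could not be traced to a raw column and so took no part in the comparison above. In that table each of the 14 member genes that passed lay beyond all 4 control samples in replicate 3, in the direction of its change. The same held for 95% of the 5422 genes that passed over the whole array, and the control samples are shared with the main comparison. HNRNPA1 stood at 8.62 in log2 processed intensity in that sample, against 9.75 to 9.84 in the control samples. HNRNPUL1 stood at 11.23 against 12.10 to 12.48, and SRSF4 at 11.70 against 12.43 to 12.62. The rising HNRNPDL probe stood at 10.56 against 9.86 to 9.98 and the falling one at 7.87 against 8.07 to 8.40. Of the 21 member probes that passed, the 1 that did not follow was the dim HNRNPH2 probe, at 7.09 against 7.20 to 7.44. Of those 21 probes, 20 had a log2 fold change nearer 0 in this table than in the main comparison, among them HNRNPA1 with -1.37 and the HNRNPDL probes with 0.62 and -0.56. HNRNPL, at -1.04, was the same in both to 2 decimals, and SRSF2, at -0.41, was the 1 farther from 0. With limma on these 8 samples 21 of 34 member genes passed, the 14 named above and HNRNPAB, HNRNPD, HNRNPH2, HNRNPR, SRSF1, SRSF5 and SRSF9. In the same fit 5952 of all 9629 genes passed, so the lower share of members in the main comparison was not seen here.

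**Figure D4:**
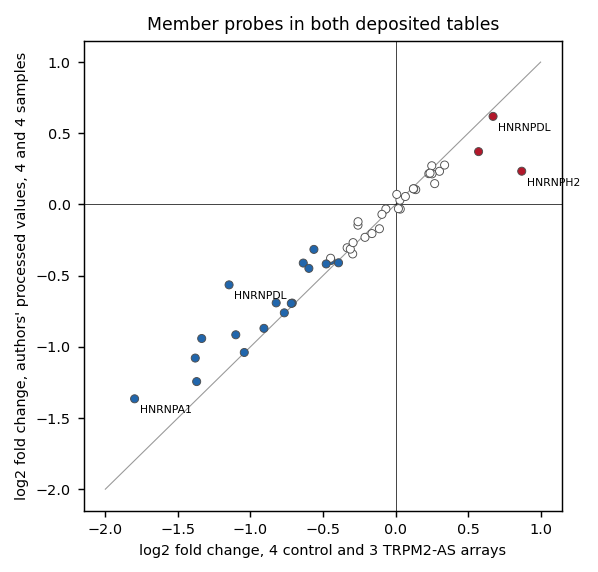
Each point is 1 of the 48 tested member probes, with the log2 fold change of the main comparison on the horizontal axis and that in the authors' processed values of 8 samples on the vertical axis; the grey line marks equal values, and blue, red and open points fell, rose or did not pass in the main comparison. HNRNPA1 lies at -1.80 and -1.37, and HNRNPH2 at 0.87 and 0.23.

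Genes that work with these proteins were counted on lists chosen by function, with the same test and probe rule. The choice was made with earlier results of these data known. Among kinases of SR proteins, 6 of 9 listed were tested: 2 rose, 0 fell and the median was 0.12. CLK1, which phosphorylates SR proteins in the nucleus, rose 2.58-fold. Its mean was 9.24 ± 0.25 (SD, n = 4) in control arrays and 10.61 ± 0.20 (SD, n = 3) after TRPM2-AS siRNA (log2 intensity, limma adjusted p = 3.68e-05). Its relative CLK4 rose 1.91-fold and was detected on 2 of 4 control arrays (limma adjusted p = 0.00062). SRPK2, a kinase that acts mainly in the cytoplasm, had -0.47 on its brighter probe, which did not pass (limma adjusted p = 0.0772), while its dimmer probe passed as lower at -0.53 (limma adjusted p = 0.0123). The kinase DYRK1A had 0.21 and did not pass (limma adjusted p = 0.248). Of the 3 transportins, importers that carry such proteins into the nucleus, TNPO2 fell 1.45-fold (limma adjusted p = 0.00178), while TNPO1, the importer of HNRNPA1, had -0.39 and TNPO3, the importer of SR proteins, had 0.15 (limma adjusted p = 0.0528 and 0.31). The other 2 TNPO1 probes had 0.31 and 0.16 and did not pass either (limma adjusted p = 0.146 and 0.409).

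All 24 listed other proteins with RS domains were tested: 7 fell, 1 rose and the median was -0.23. The splicing coactivator SRRM1 fell 2.83-fold and its speckle partner SRRM2 fell 2.79-fold (limma adjusted p = 1.35e-06 and 1.1e-05). BCLAF1 fell 2.35-fold and TRA2A, which binds exonic enhancers, fell 1.48-fold (limma adjusted p = 1.28e-05 and 0.00136). ZRSR2, a factor of minor-intron splicing, was the 1 that rose, by 1.35-fold (limma adjusted p = 0.0306). Among hnRNPs that carry other symbols, 6 of 7 were tested, 3 fell, 0 rose and the median was -0.18. PTBP1 (hnRNP I), a repressor that binds pyrimidine tracts, fell 2.24-fold, RBMX (hnRNP G) fell 1.66-fold and SYNCRIP (hnRNP Q) fell 1.22-fold (limma adjusted p = 1.31e-05, 0.000385 and 0.0408). PCBP2 (hnRNP E) had 0.29 and did not pass (limma adjusted p = 0.084).

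Of 38 other splicing regulators, 32 were tested, 10 fell, 7 rose and the median was -0.11. ELAVL1, the mRNA-stabilising protein HuR, rose 3.04-fold (limma adjusted p = 1.86e-06), and RBM4 rose 1.56-fold (limma adjusted p = 0.000877), with 2 of its 3 tested probes higher. NOVA1 fell 2.44-fold, with 2 of 3 TRPM2-AS siRNA arrays detecting it, and RBM17 fell 1.53-fold (limma adjusted p = 0.000125 and 0.000641). Of 15 factors of nonsense-mediated decay and the exon junction complex, 10 were tested, 5 fell, 0 rose and the median was -0.31. SMG5 fell 2.23-fold, SMG9 1.79-fold, UPF1, the central helicase of the pathway, 1.56-fold and UPF2 1.48-fold (limma adjusted p = 0.00157, 0.00177, 0.00593 and 0.0026), with 2 of 3 tested UPF2 probes lower. The share that passed was 33.3% for the kinases, the transportins and the RS domain proteins, and 50% for the renamed hnRNPs and the decay factors. It was 53.1% for the other splicing regulators, against 56.3% of all genes. By direction, 28.3% of all genes fell and 28.0% rose, and the list counts are to be read beside these shares.

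**Figure D5:**
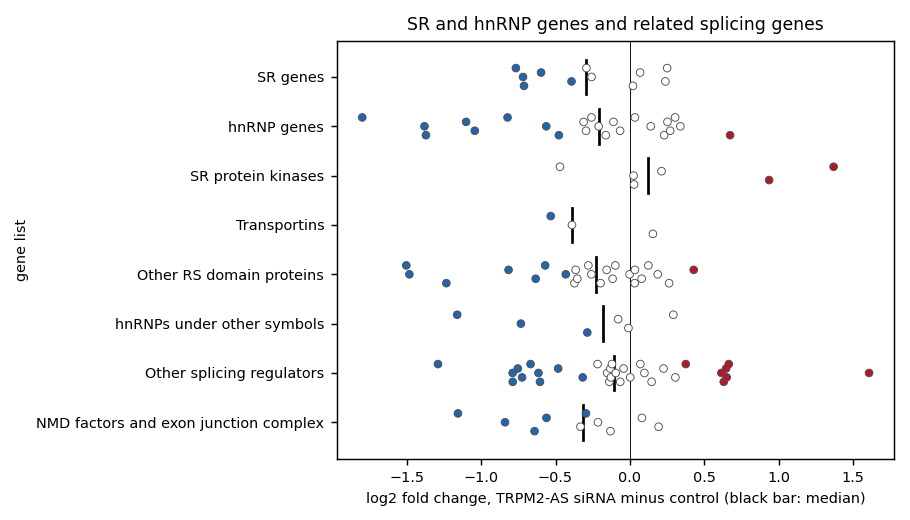
Each point is the log2 fold change of 1 tested gene, by list, with blue points lower, red points higher and open points not past the test; black bars mark list medians. The SR genes hold 5 blue and 0 red points, and the hnRNP genes 8 blue points and 1 red point.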

How the data were processed

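The labels give 8 samples, 4 per siRNA. The first deposited table holds non-normalized probe intensity with a detection p-value beside each signal, per the file headers. The second holds the authors' processed intensity of all 8 samples on a linear scale, and log2 was taken of it here. The submitters' processing notes name BeadStudio and limma without versions, and the genome build is not given in the sources used here. Of the 8 raw columns, 7 ranked all 48798 probes exactly as 1 sample of their named group did (Spearman rho of 1), and 1 signal column, which matched no sample, was not used.

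Background was removed in R 4.3.3 with limma 3.58.1 (function nec, which infers it from the detection p-values; offset 16), followed by quantile normalization and log2. The filter kept 14400 probes, those with 3 or more of the 7 arrays at a detection p under 0.01. Of all probes, 28094 had 1 gene name, 13 several and 20691 none. All 38 member genes matched RefSeq by gene ID under the same symbol. The comparison used lmFit and eBayes of limma, two-sided, with Benjamini-Hochberg adjustment over all probes kept. Pairs of probes of a gene were compared by the same fit on their difference within each array. The fit was tested on simulated data. A member that passed with its groups apart, or whose probes changed unequally, is given with its value on every array, and of each list up to 4 genes with the smallest p. ZRSR2 was named after its value was seen, as were the uncalled members given with array values. The fold changes of the epithelial markers and COL1A1 were likewise added after their values were seen. The members and lists were chosen with earlier results of these data known. Precision is limited by the number of arrays: log2 fold changes had a median SE of 0.14. Alternatives covered background correction, normalization, filter, probe choice, variance model, the authors' values, a replicate block and each array left out in turn.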

Additional observations from a re-analysis of the deposited data

Results flagged for a closer look

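Each group of 4 values of a tested member probe was checked for a sample far from the others, 144 groups in all, of which chance flags about 1 in 20. In 2 groups, both in the authors' processed values, TRPM2-AS siRNA replicate 1 stood apart. The brightest HNRNPAB probe, ILMN_1651262, read 14.84 in log2 processed intensity there and 14.76 to 14.77 in the other TRPM2-AS siRNA samples. The brighter HNRNPK probe, ILMN_2378048, read 12.48 there and 12.04 to 12.10 in the others.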

How the results depend on the processing

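Over 19 alternative settings the count of member genes that passed ran from 13 to 22, against 14, with 4 to 6 SR genes and 7 to 10 hnRNP genes lower. Over all genes the count ran from 4888 to 6232, against 5422. With no background correction 20 of 34 members and 5661 of 9629 genes passed, and with a variance trend 20 and 5652. The lower share of members that passed in the main comparison was therefore not kept in those settings. In the named probes and pairs, 23 of 470 values lost their pass and 1 reversed: HNRNPDL, at -0.24 with the mean of a gene's probes. SR genes that rose numbered 1 with no background correction or with a variance trend, and 2 in the authors' processed values with or without the replicate block, against 0. The hnRNP genes that rose numbered 3 with no background correction, a variance trend or the authors' values, 2 with an offset of 50, the mean of a gene's probes or the replicate block, and 4 with the block in the authors' values, against 1. Member genes that passed reached 22 with that block. Member probe pairs that differed numbered 3 with no filter or the replicate block, and 2 to 4 when each array was left out, against 5, with 3 without control array 1, 2 or 3 or TRPM2-AS siRNA array 3 and 2 without TRPM2-AS siRNA array 4. Pairs that differed over all genes numbered 730 with no background correction, 837 in the authors' values and 916 with the block there, against 470. With no filter such pairs numbered 1861, but there pairs with probes that failed the filter were tested too. The no-filter counts of pairs are therefore not over the same pairs. Settings with 1 probe or a mean per gene give no probe or pair counts. The cause of these shifts was not tested.

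Samples of both groups share replicate numbers, and deviations of same-numbered samples in the authors' values correlated at 0.36, -0.07, 0.06 and 0.21. With no reference to set them against, these values cannot decide whether same-numbered samples were handled together. The main comparison did not pair them. Only 3 TRPM2-AS siRNA arrays entered the comparison, and dim probes such as HNRNPA1L2, SRSF11 and the second HNRNPH2 probe lay near background.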
